A study of Mus musculus with 6 samples.

Results

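Synaptic vesicle and exocytosis genes of the dorsal root ganglion (DRG) were compared between Meis1cko and control mice. The genes were taken by symbol from 9 families, which are the synaptotagmins (Syt), complexins (Cplx), syntaxins (Stx), SNAP proteins (Snap23, Snap25, Snap29 and Snap91), VAMPs, syntaxin-binding proteins (Stxbp), synapsins (Syn), SV2 proteins and Rab3 proteins. Only probe sets listed for a single gene were used, which gave 60 genes with 144 probe sets, of 18193 genes and 45037 probe sets in all. Unless another is named, a gene stands for the probe set with the highest signal, the one with the highest mean log2 intensity over the 6 arrays (the brightest). Up to 6 probe sets were listed per gene, and 20 of the 60 genes had 1.

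Meis1cko mice carry a floxed Meis1 allele deleted by Cre under the Nav1.8 promoter, which is active in nociceptors, and the group held 3 mice at P60. The control group held 3 mice of the same age. Behavioural controls in the study were Meis1 F/F littermates without Cre, and the alleles of the array controls are not given in the sources used here. DRGs of cervical, thoracic and lumbar levels were taken from each mouse, and their total RNA was hybridized to 1 Affymetrix array, so that other neurons, glia, vessels and connective tissue add to every value. In such tissue, fewer cells of a type and less RNA per cell cannot be told apart.

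A synaptic vesicle fuses with the plasma membrane when its VAMP protein zips together with syntaxin and a SNAP protein of the target membrane into a SNARE complex. Munc18 proteins hold syntaxin and help to assemble the complex, complexins bind the assembled complex, and synaptotagmins sense the calcium that triggers fusion. Synapsins tether vesicles in a reserve pool, SV2 proteins sit in the vesicle membrane, and Rab3 proteins guide vesicles to release sites. DRG neurons use this machinery at their central terminals in the spinal cord, where glutamate is released, and also for the release of neuropeptides from dense-core vesicles. Other syntaxins and VAMPs serve endosomes, the Golgi or secretion in cells that are not neurons.

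Meis1 itself had intensities of 66.0, 72.1 and 64.2 in Meis1cko DRGs and 110, 144 and 90.2 in control DRGs, a log2 fold change of -0.74 (SE 0.18, unadjusted p = 0.00434 and adjusted p = 1, limma). The groups did not overlap, and the position of this probe set relative to the deleted exon is not given in the sources used here. Over all probe sets, 7 passed an adjusted p of 0.05 in limma, or 0.0155%. All 13 measured markers of DRG neurons reached the median of the probe sets, with a summed intensity of 121980.1 to 133569 in Meis1cko DRGs and 115363 to 130040.4 in control DRGs. Snap25, one of the 60 genes, is among these markers. Their log2 fold changes were above 0 for 12 and below 0 for 1 (median 0.06). An unadjusted p under 0.05 in limma was found for 1 (2.56% of all genes). The genotypes did not overlap for 1, higher in Meis1cko mice (3.12% of all genes). The replicate 3 arrays of both genotypes stood apart from the others, and arrays of the same replicate number deviated together. Counts, and p-values of a few genes, are therefore also given with the replicates paired. Errors of single genes can differ widely between the fits, as for Vamp1 (SE 0.30 without pairing and 0.10 with it).

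Most of the machinery was well represented on the arrays. Of the 60 genes, 54 had a mean no lower than the median of all probe sets (64.8), and 37 lay above the 75th percentile. Taking the brightest probe set raises these counts for any gene. Of all 18193 genes taken in this way, 12178 reached that median and 7102 lay above the 75th percentile. The only gene below the 25th percentile on every array was Stx19, whose intensities of 11.9, 13.6 and 13.5 in Meis1cko DRGs and 10.1, 13.6 and 10.9 in control DRGs do not show that it is expressed. Intensities of different probe sets depend on the probes as well as on the transcript, and the genes are therefore not ranked by level against each other.

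**Figure D1:**
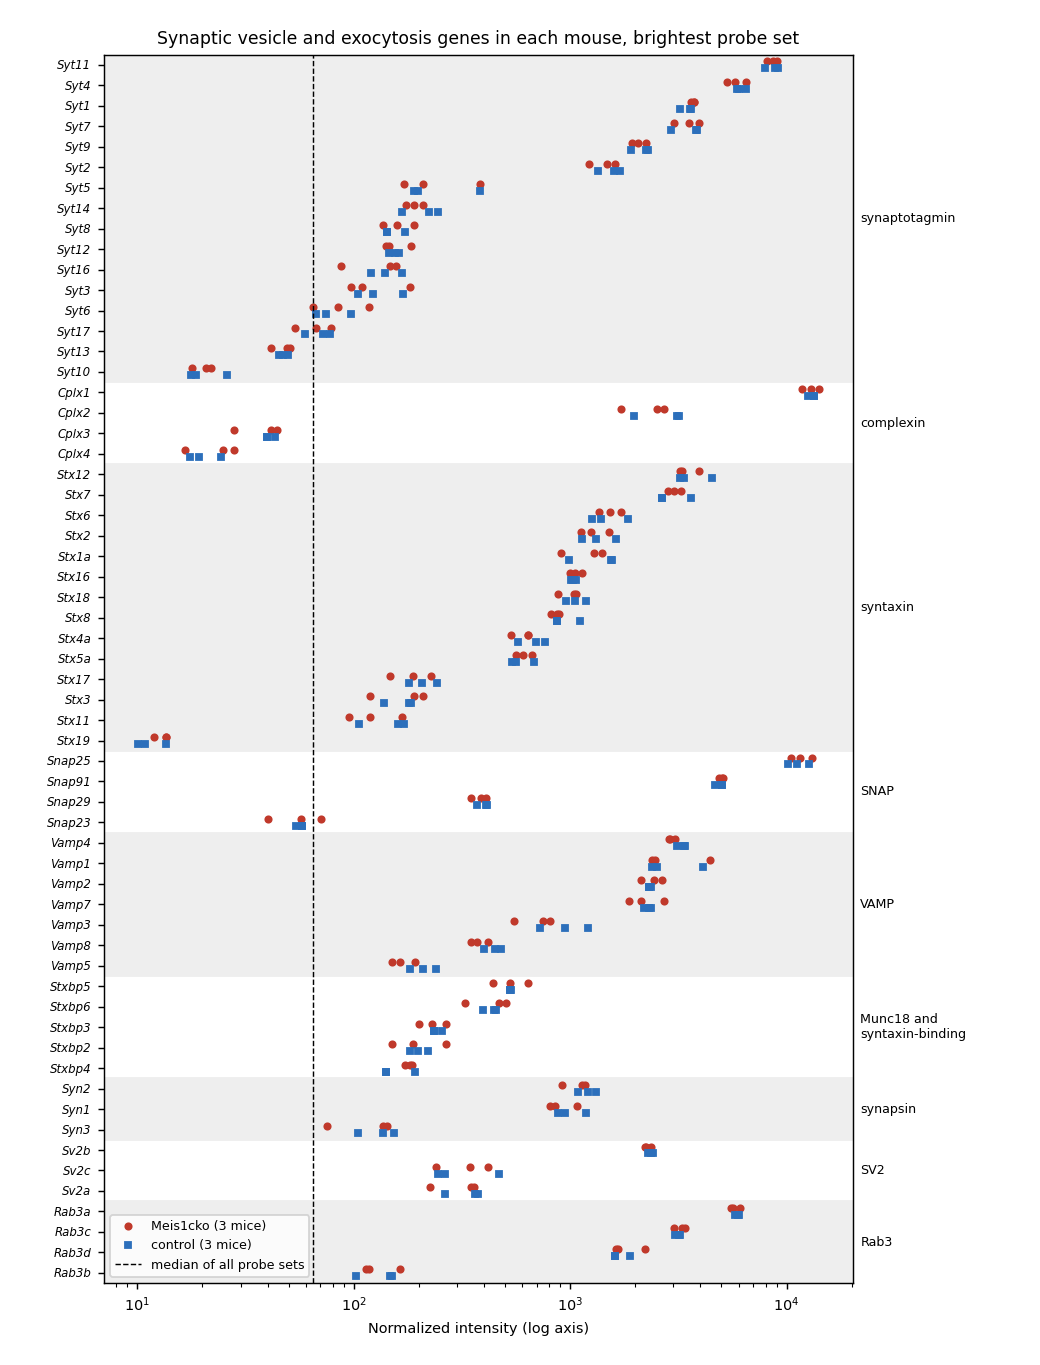
Normalized intensity (log axis) of the brightest probe set of each of the 60 genes, grouped by family and listed within a family by mean intensity. Red circles are the 3 Meis1cko mice, blue squares the 3 control mice, and the dashed line marks the median of all probe sets (64.8). For 58 of the 60 genes the points of the genotypes overlap in range.

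No gene of the 60 passed the test between Meis1cko and control DRGs. The adjusted p was 1 for all 60 in limma, 0 of the 60 had an unadjusted p under 0.05 (2.56% of all genes), and the lowest unadjusted p was 0.0760. None passed the fold change over 1.5 and p under 0.05 that the methods used as thresholds (0.781% of all genes). The log2 fold changes ran between -0.44 (Vamp3) and 0.20 (Stxbp4), with a size under 0.1 for 37 genes, 0.1 to 0.25 for 21 and over 0.25 for 2. A value above 0 was found for 19 genes and a value below 0 for 41, with a median of -0.05. Over all 18193 genes, 8336 values were above 0 and 9857 below, with a median of -0.01. The groups did not overlap for 2 of the 60 genes, against 6.94% of all genes. Syt1 was higher (3.12% of all genes) and Vamp4 lower (3.82% of all genes) in the Meis1cko mice. By exact permutation, such a separation of 3 arrays against 3 has a two-sided p of 0.1, the smallest this design allows.

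The intervals give the size of difference that these arrays leave possible, and they differ between the fits. Without pairing, all 60 of the 95% intervals from limma included 0. For 45 genes (75%) the interval lay within a 1.5-fold change in both directions, as it did for 73.0% of all genes. For the other 15 a 1.5-fold difference in at least 1 direction was within the interval, and these were Sv2a, Sv2c, Vamp1, Vamp3, Vamp5, Cplx2, Cplx4, Syn3, Syt3, Syt5, Syt6, Syt16, Stx1a, Stx11 and Stx17. All 4 SNAP genes, all 4 Rab3 genes and all 5 syntaxin-binding genes were among the 45. With the replicates paired, the interval lay within 1.5-fold for 59 of the 60 genes, against 91.3% of all genes, the exception being Vamp3 (-0.73 to -0.16). In that fit 57 of the 60 intervals included 0, and those of Vamp3, Vamp5 and Cplx2 did not. Errors and intervals of single genes are given without pairing.

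**Figure D2:**
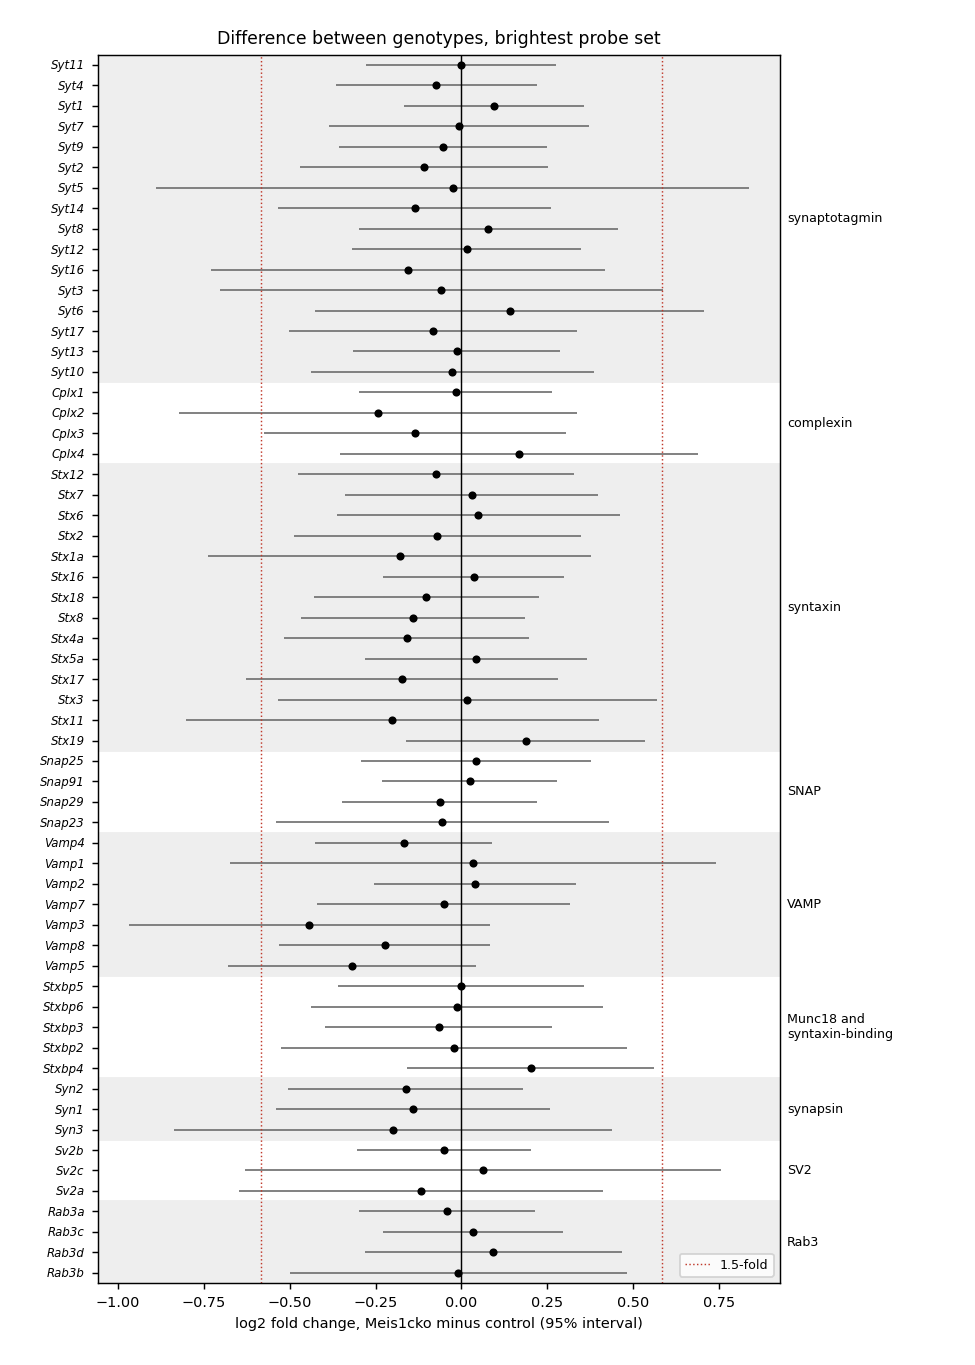
log2 fold change (Meis1cko minus control, 3 mice each) of each of the 60 genes with its 95% interval from limma, without pairing and in the same order as the plot of intensities. Dotted red lines mark a 1.5-fold change. Every interval crosses 0, and Vamp3 has the lowest value at -0.44.

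The 16 synaptotagmins had log2 fold changes between -0.16 (Syt16) and 0.14 (Syt6), with 4 above 0, 12 below and a median of -0.03. Syt1, the calcium sensor of fast transmitter release, had intensities of 3742, 3616 and 3730 in Meis1cko DRGs and 3608, 3577 and 3209 in control DRGs. All 3 Meis1cko values were above the highest control value, by a margin smaller than the spread of the controls. The log2 fold change was 0.09 (SE 0.11, 95% interval -0.17 to 0.36, adjusted p = 1, limma). Syt2 and Syt9, which also act as fast calcium sensors, were at -0.11 (SE 0.15) and -0.05 (SE 0.13). Syt7, which has a high calcium affinity and acts in slower release, was at -0.01 (SE 0.16).

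Syt11, a synaptotagmin that does not bind calcium, had intensities of 8643, 8096 and 9065 in Meis1cko DRGs and 8802, 7945 and 9081 in control DRGs. The genotypes covered nearly the same range, and the log2 fold change was -0.00 (SE 0.12, 95% interval -0.28 to 0.28). Syt4, a related form found on dense-core vesicles, was at -0.07 (SE 0.13). A second Syt4 probe set was at 0.43, the highest value of the 144 probe sets, with the genotypes overlapping. Of the synaptotagmins, 14 of the 16 lay no lower than the median intensity, the exceptions being Syt10 and Syt13.

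Of the 4 complexins, Cplx1 and Cplx2 lay above the median of all probe sets and Cplx3 and Cplx4 below it. Cplx1, the main complexin of many fast synapses, had intensities of 11806, 14077 and 12996 in Meis1cko DRGs and 13390, 13362 and 12499 in control DRGs. The Meis1cko values lay on both sides of the controls, with a log2 fold change of -0.02 (SE 0.12, 95% interval -0.30 to 0.26). Cplx2, its close relative, had 2516, 2707 and 1725 in Meis1cko DRGs and 3185, 3116 and 1966 in control DRGs. Each Meis1cko value was below the control of its own number while the replicate 3 arrays were low in both genotypes, so that the groups overlapped. The log2 fold change was -0.24 (SE 0.25, unadjusted p = 0.356). With the replicates paired, the unadjusted p was 0.0480 and the adjusted p 0.711 (limma). How many of all genes show such an order within replicate numbers was not counted, for Cplx2 or for the genes below. Cplx3 and Cplx4, the complexins of retinal ribbon synapses, were at -0.14 (SE 0.19) and 0.17 (SE 0.22).

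Among the 14 syntaxins the median log2 fold change was -0.07, with 6 above 0 and 8 below. Stx1a, a plasma membrane partner of Snap25, had intensities of 1291, 1396 and 903 in Meis1cko DRGs and 1556, 1536 and 990.0 in control DRGs. The value of each Meis1cko mouse was below that of the control with the same number, and the groups overlapped, with a log2 fold change of -0.18 (SE 0.24, 95% interval -0.74 to 0.38). Its probe set is of a class (suffix x) that can also bind other transcripts, as are the brightest probe sets of Vamp3, Rab3a, Stx6 and Stx18. Stx12, an endosomal syntaxin, had 3299, 3201 and 3958 in Meis1cko DRGs and 3352, 3203 and 4544 in control DRGs. Here the replicate 3 arrays were the high ones, and the log2 fold change was -0.07 (SE 0.17).

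The remaining syntaxins had log2 fold changes between -0.20 (Stx11, known from secretion in immune cells) and 0.19 (Stx19, at the dim end of the arrays). Those of endosomes and the trans-Golgi were at 0.03 (Stx7), -0.14 (Stx8), 0.05 (Stx6) and 0.04 (Stx16), and Stx17 of the autophagosome was at -0.17. Stx5a of the Golgi and Stx18 of the endoplasmic reticulum were at 0.04 and -0.10. The plasma membrane forms Stx2, Stx3 and Stx4a, the last under the symbol the array annotation uses, were at -0.07, 0.02 and -0.16.

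Snap25, the neuronal partner of Stx1a, had intensities of 10454, 11543 and 13103 in Meis1cko DRGs and 10151, 11225 and 12671 in control DRGs. The values of the genotypes were close within each number and overlapped as groups, and the log2 fold change was 0.04 (SE 0.14, 95% interval -0.29 to 0.38). Snap23 and Snap29, which act in cells outside the nervous system as well, were both at -0.06 (SE 0.21 and 0.12). Snap91 is a clathrin assembly protein of vesicle recycling that shares only the name with the others, and it was at 0.02 (SE 0.11).

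The 7 VAMPs had a median of -0.17, next to -0.16 for the synapsins, with 2 values above 0 and 5 below. Without both replicate 3 arrays the VAMP median was -0.13 and that of the complexins -0.14. Vamp1, like Vamp2 a VAMP of transmitter release, had intensities of 2399, 2465 and 4442 in Meis1cko DRGs and 2508, 2376 and 4102 in control DRGs, with the replicate 3 array highest in both genotypes and a log2 fold change of 0.03 (SE 0.30, 95% interval -0.67 to 0.74). Vamp2 had 2652, 2432 and 2119 in Meis1cko DRGs and 2306, 2314 and 2364 in control DRGs. The Meis1cko values lay around the controls, and the log2 fold change was 0.04 (SE 0.13, 95% interval -0.26 to 0.33). Vamp7, which acts in late endosomes and lysosomes, was at -0.05 (SE 0.16).

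Vamp3, Vamp5 and Vamp8 are VAMPs of many cells outside the nervous system, and Vamp4 serves the trans-Golgi. Vamp3 had intensities of 745, 806 and 552 in Meis1cko DRGs and 1208, 949.8 and 728 in control DRGs, or 701 ± 133 and 962 ± 240 (SD, n = 3 each). Each Meis1cko value was below the control of its number, and the highest Meis1cko value exceeded the lowest control. The log2 fold change was -0.44 (SE 0.22, 95% interval -0.97 to 0.08, unadjusted p = 0.0867, limma). All 5 Vamp3 probe sets had a log2 fold change below 0, the other 4 between -0.24 and -0.19. The brightest is of the class that can bind other transcripts, and the brightest Vamp3 probe set outside that class was at -0.19 (SE 0.18).

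Vamp5, first described in muscle, had 192, 163 and 149.8 in Meis1cko DRGs and 239, 208 and 183 in control DRGs, again lower within each number and overlapping as groups. The log2 fold change was -0.32 (SE 0.15, 95% interval -0.68 to 0.04, unadjusted p = 0.0760, limma). A dim second probe set went the other way, with 21.8, 23.9 and 28.1 in Meis1cko DRGs and 16.7, 20.4 and 19.4 in control DRGs and a log2 fold change of 0.38 (unadjusted p = 0.0334, limma). An unadjusted p under 0.05 was found for 1 of the 144 probe sets, this one, and for 1043 of all 45037. Vamp8, known from regulated secretion in exocrine and blood cells, had 418, 348 and 370.4 in Meis1cko DRGs and 477, 400.0 and 449 in control DRGs. Its log2 fold change was -0.22 (SE 0.13, unadjusted p = 0.131, limma).

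With the replicates paired, 3 of the 60 genes had an unadjusted p under 0.05, against 7.11% of all genes, and all 3 were lower in Meis1cko mice. They were Vamp3 (unadjusted p = 0.00782, adjusted p = 0.480, limma), Vamp5 (unadjusted p = 0.0146, adjusted p = 0.572, limma) and Cplx2, and none passed after adjustment. Without both replicate 3 arrays, 1 of the 60 had an unadjusted p under 0.05 (Vamp3, log2 fold change -0.47, unadjusted p = 0.0250, limma), against 4.41% of all genes. Markers of other cells in the ganglion ran in both directions. All 7 fibroblast markers had log2 fold changes below 0 (median -0.54). Their summed intensities were 12880.1 to 16164 in Meis1cko DRGs and 15549.8 to 25427 in control DRGs. Of these 7 markers, 4 had an unadjusted p under 0.05 in limma (2.56% of all genes). The genotypes did not overlap for 3, lower in Meis1cko mice (3.82% of all genes). With the replicates paired, 1 of the 7 passed an adjusted p of 0.05 in limma, as did 18 of all 18193 genes. Of the 8 macrophage markers, 7 were below 0 (median -0.40), with sums of 824 to 1441 in Meis1cko DRGs and 1210.0 to 1870 in control DRGs. An unadjusted p under 0.05 in limma was found for 1 of the 8 (2.56% of all genes). With the replicates paired it was found for 5 (7.11% of all genes), all lower in Meis1cko mice. Mural cell markers ran the other way, with 5 of 6 above 0 (median 0.18), as did 5 of 7 endothelial markers (median 0.08). Of the 6 mural markers, 2 had an unadjusted p under 0.05 in limma (2.56% of all genes). The genotypes did not overlap for 2, higher in Meis1cko mice (3.12% of all genes). Of 7 satellite glia markers, 4 were below 0 (median -0.03), with 1 at an unadjusted p under 0.05. Of 6 myelinating Schwann cell markers, 3 were below 0 (median 0.05), with 0 at that p. Each of these 2 lists had 1 marker lower without overlap. Of 8 skeletal muscle markers, 5 were below 0 (median -0.22). The muscle sums were 1492, 1324 and 577 in Meis1cko DRGs and 3041, 1757 and 338 in control DRGs. The part of any of these cells in the Vamp3, Vamp5 and Vamp8 values was not tested.

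Vamp4 had intensities of 2881, 3035 and 2849 in Meis1cko DRGs and 3111, 3343 and 3397 in control DRGs, or 2922 ± 99.5 and 3284 ± 152 (SD, n = 3 each). All 3 Meis1cko values were below all 3 control values, with a log2 fold change of -0.17 (SE 0.11, unadjusted p = 0.169, limma). A second Vamp4 probe set was separated in the opposite direction, with 2394, 1926 and 1938 in Meis1cko DRGs and 1916, 1867 and 1879 in control DRGs and a log2 fold change of 0.14. The third Vamp4 probe set was at 0.21, with the genotypes overlapping. These probe sets therefore give no single direction for Vamp4, and the VAMP median of -0.17 is the value of its brightest probe set.

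**Figure D3:**
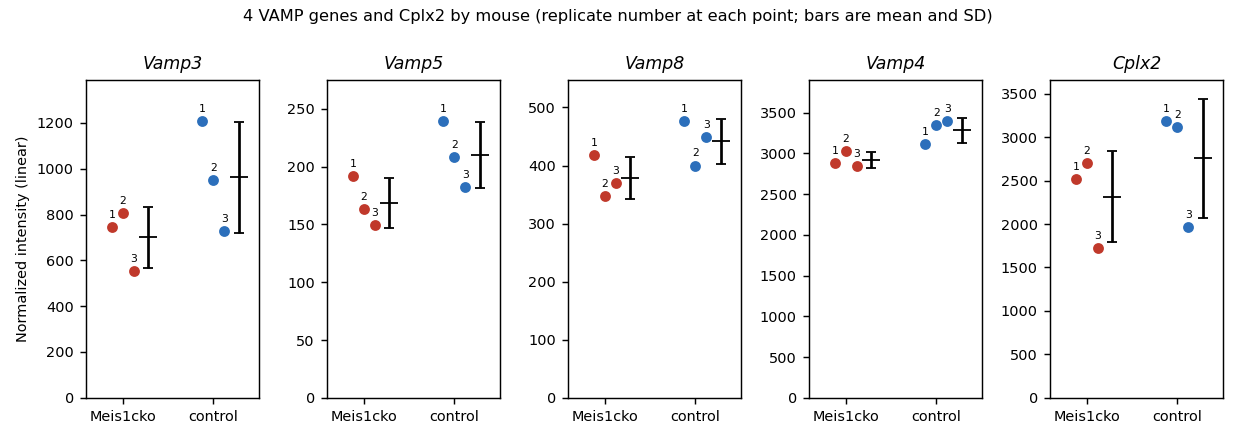
Normalized intensity (linear axis) of Vamp3, Vamp5, Vamp8, Vamp4 and Cplx2 in the 3 Meis1cko mice (red, left) and the 3 control mice (blue, right), with the replicate number above each point and the mean and SD beside them. Vamp4 is the only one whose groups do not overlap, and in the other 4 genes each Meis1cko value is below the control of the same number.

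Meis proteins are homeodomain factors whose core binding sequence is TGACAG. The 250 bases upstream of each start in the RefSeq promoter table (GRCm38.p6) were searched for it on both strands, where the reverse complement reads CTGTCA. Of the 60 genes, 48 had a start in the table, with 64 starts among them, and 9 of the 64 windows held the hexamer (14.1%), against 15.9% of all 32851 windows. Of the 3 genes with a small paired p, Vamp5 and Cplx2 were in the table, and the windows listed for them are shown, 1 with a match and 1 without. The Vamp5 window (chr6:72380469-72380718, minus strand) holds 1 match, in capitals, and the Cplx2 window (chr13:54302306-54302555, plus strand) holds 0. The Cplx2 start in the table lies inside the annotated gene, downstream of its outermost start, whose upstream bases were not searched. Both are written 5′ to 3′ along the gene.
Vamp5: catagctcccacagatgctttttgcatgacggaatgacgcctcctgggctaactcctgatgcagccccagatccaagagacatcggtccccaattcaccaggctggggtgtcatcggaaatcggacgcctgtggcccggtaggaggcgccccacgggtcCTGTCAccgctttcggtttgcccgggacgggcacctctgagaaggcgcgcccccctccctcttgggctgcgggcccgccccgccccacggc
Cplx2: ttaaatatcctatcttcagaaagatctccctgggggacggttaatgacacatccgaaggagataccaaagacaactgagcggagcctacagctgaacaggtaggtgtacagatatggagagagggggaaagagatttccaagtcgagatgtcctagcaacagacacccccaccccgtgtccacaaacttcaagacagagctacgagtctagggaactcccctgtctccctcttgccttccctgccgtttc
A match of 6 letters describes the window and is not a binding site by itself.

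All 5 syntaxin-binding genes lay at or above the median intensity. Stxbp5 (tomosyn, which holds back SNARE assembly) had intensities of 636, 526 and 442 in Meis1cko DRGs and 529, 532 and 527 in control DRGs. The Meis1cko mice were spread on both sides of tightly grouped controls, with a log2 fold change of -0.00 (SE 0.15, 95% interval -0.36 to 0.36). Stxbp4 (synip, a partner of Stx4) had the highest value of the 60 genes at 0.20 (SE 0.15, 95% interval -0.16 to 0.56). The Munc18 forms of cells outside the nervous system, Stxbp2 and Stxbp3, were at -0.02 and -0.07, and Stxbp6 (amisyn) was at -0.01.

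All 3 synapsins had values below 0, between -0.20 (Syn3) and -0.14 (Syn1), and each interval included 0. Syn1 had intensities of 847, 807 and 1073 in Meis1cko DRGs and 947, 877 and 1183 in control DRGs. Syn2 had 1138, 1174 and 914 in Meis1cko DRGs and 1204, 1310.0 and 1085 in control DRGs. In both genes each Meis1cko mouse was below the control of its number while the groups overlapped. The log2 fold changes were -0.14 (SE 0.17) for Syn1 and -0.16 (SE 0.15) for Syn2. Other genes had the same order within numbers, such as Sv2a and Stx12, and some had the reverse, such as Snap25. Its share over all genes was not counted.

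The SV2 proteins are transporter-like glycoproteins of the vesicle membrane. Sv2a had intensities of 358, 349 and 225 in Meis1cko DRGs and 373, 364 and 264 in control DRGs, with the replicate 3 array lowest in both genotypes and a log2 fold change of -0.12 (SE 0.23, 95% interval -0.65 to 0.41). Sv2b had 2206, 2371 and 2244 in Meis1cko DRGs and 2288, 2358 and 2420.4 in control DRGs. Its groups overlapped, with a log2 fold change of -0.05 (SE 0.11). Sv2c was at 0.06 with a wide error (SE 0.30).

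Rab3a, the main Rab3 of synaptic vesicles, had intensities of 5517, 6072 and 5677 in Meis1cko DRGs and 5978, 6024 and 5772 in control DRGs. The ranges overlapped, and the log2 fold change was -0.04 (SE 0.11, 95% interval -0.30 to 0.21). Rab3b, Rab3c and Rab3d were at -0.01 (SE 0.21), 0.03 (SE 0.11) and 0.09 (SE 0.16). Rab3d is best known from secretory granules of exocrine cells.

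Direction also depended on the probe set chosen. Of the 40 genes with more than 1 probe set, all probe sets of a gene had the same sign for 15 and signs differed for 25. Over all 144 probe sets the genotypes did not overlap in 6 (4 higher and 2 lower in Meis1cko mice), against 6.64% of all probe sets. For Syt7, a probe set with 1105, 1198 and 1089 in Meis1cko DRGs and 1007, 955 and 828 in control DRGs was higher without overlap. A dimmer Syt7 probe set with 57.2, 54.8 and 57.6 in Meis1cko DRGs and 70.6, 60.2 and 81.6 in control DRGs was lower without overlap. The brightest Syt7 probe set showed no separation.

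For some probe sets of the vesicle genes the replicate 3 arrays differed from the others in both genotypes alike. Of the 144 probe sets, 19 (13.2%) differed by over 1.5-fold between the replicate 3 array and the mean of replicates 1 and 2 in the same direction in both genotypes, against 6.74% of all probe sets. They were 16 higher probe sets from 14 genes (log2 differences of 0.64 to 2.96) and 3 lower ones (-1.0 to -0.60). Among the brightest probe sets there were 3 of 60 (5.0%), against 3.78% of all genes, with Vamp1 and Syt5 higher and Cplx2 lower. Among the 84 dimmer probe sets there were 16 (19.0%). The share over the dimmer probe sets of all genes was not counted. Over the 144 probe sets the difference in Meis1cko mice followed that in control mice with a Pearson r of 0.888, a description of 6 arrays that share these probe sets.

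A second Syt11 probe set had intensities of 1771, 1506 and 8801 in Meis1cko DRGs and 1689.6, 1589.7 and 10315 in control DRGs, while the brightest probe set of the same gene stayed between 7945 and 9081 on all 6 arrays. A second Cplx1 probe set had 365, 462 and 3197 in Meis1cko DRGs and 428, 469 and 2377 in control DRGs. The array of replicate 3 was thus several times higher in both genotypes for a probe set of a gene whose brightest probe set did not show it. A second Vamp2 probe set followed the same course, with 113, 88.5 and 437 in Meis1cko DRGs and 139, 133 and 394 in control DRGs. Its log2 fold change was -0.25 (SE 0.66), and -0.45 without both replicate 3 arrays (unadjusted p = 0.0284, limma). In that fit 8 of the 144 probe sets had an unadjusted p under 0.05, as did 2069 of all 45037, and 0 of the 60 genes passed after adjustment. On the same arrays the 3′ probe set of Actb exceeded its 5′ probe set, on the log2 scale, by 1.66, 1.32 and 0.44 in Meis1cko DRGs and 1.23, 1.30 and 0.42 in control DRGs, lowest in replicate 3 of both. Whether it has a part in the probe set differences was not tested.

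**Figure D4:**
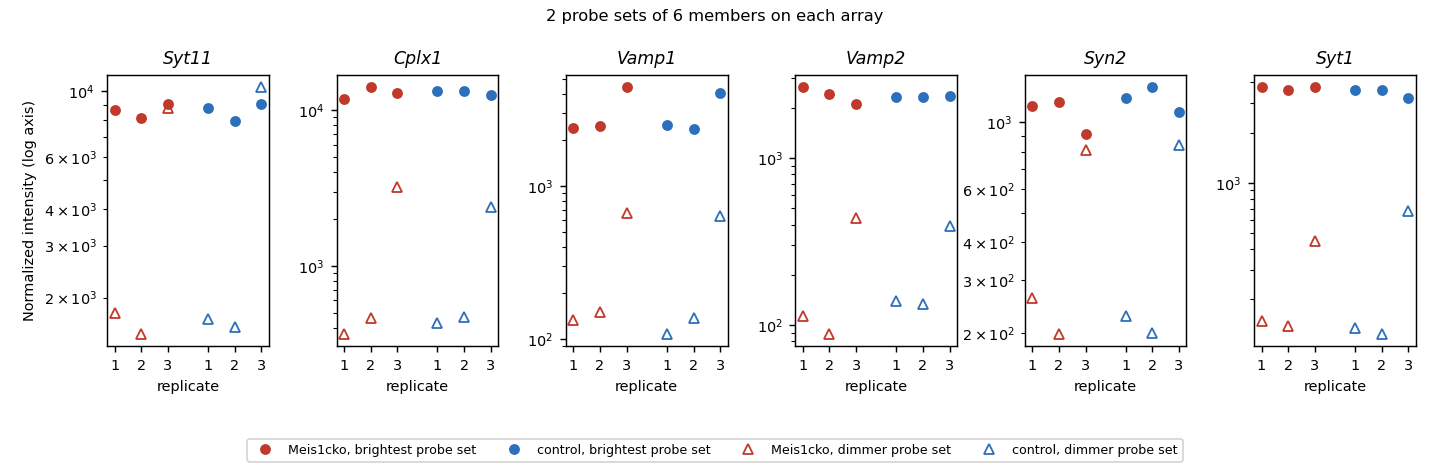
Normalized intensity (log axes, a scale for each gene) of the brightest probe set (filled circles) and a dimmer one (open triangles) of 6 genes on the 3 Meis1cko arrays (red, left) and the 3 control arrays (blue, right). The dimmer probe sets are highest on replicate 3 in both genotypes, as for Cplx1 at 3197 and 2377.

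**Figure D5:**
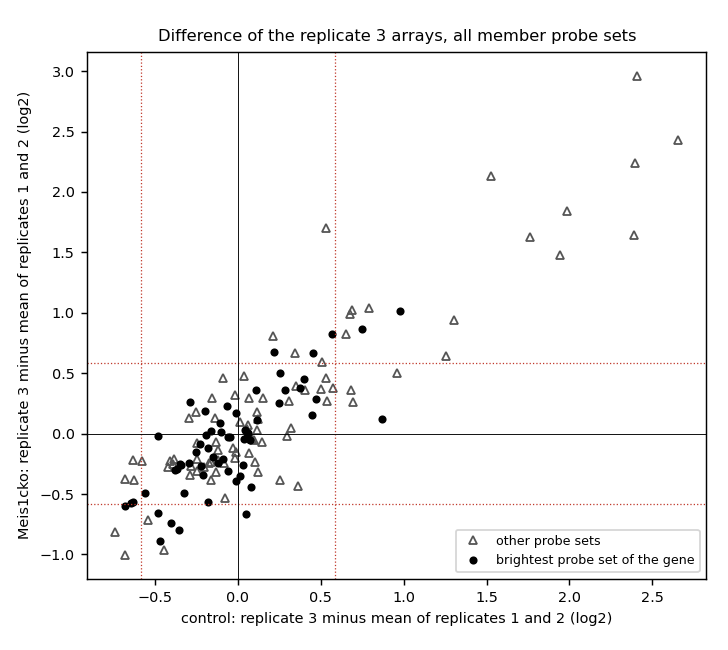
log2 difference between the replicate 3 array and the mean of replicates 1 and 2 in Meis1cko (vertical axis) and control (horizontal axis) for the 144 probe sets, with filled circles for the 60 brightest and open triangles for the other 84. Dotted lines mark a 1.5-fold difference, and the points follow the diagonal (Pearson r 0.888), with the farthest at the upper right all dimmer probe sets.

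The Meis1cko replicate 3 array held the lowest of the 6 values for 25 of the 60 genes, and its median deviation from the mean over the 6 arrays was -0.10, against -0.03 to 0.04 on the other 5 arrays. The share over all genes was not counted. The 75th percentile of all probe sets was also lowest on that array, at 288 against 298 to 329 on the other 5. The median log2 fold change of the 60 genes was -0.01 without that array and -0.04 without both replicate 3 arrays, against -0.05 with all 6.

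Other genes of the vesicle cycle were examined in 6 lists, and 0 of their members passed an adjusted p of 0.05 in limma. Of 24 active zone and priming genes, 1 had an unadjusted p under 0.05 (2.56% of all genes), and the genotypes did not overlap for 2 (6.94% of all genes). This was Bsn (Bassoon, a scaffold of the active zone), with 688, 673 and 758 in Meis1cko DRGs and 592, 563 and 546 in control DRGs, separated without overlap and with a log2 fold change of 0.32 (SE 0.11, unadjusted p = 0.0264, adjusted p = 1, limma). The calcium sensors Doc2b and Doc2a were at -0.33 and -0.18 with low intensities, Doc2b being the gene that was lower without overlap, and the median of the list was 0.03.

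In 4 of the lists no member had an unadjusted p under 0.05, and the log2 fold changes of the 3 members with the smallest p are given in brackets. The 21 measured of 23 SNARE disassembly and other SNARE genes had a median of -0.04 (Gosr1 0.19, Use1 -0.16, Bet1 -0.18, which act between the endoplasmic reticulum and the Golgi). The 15 measured of 19 Rab3 and Rab27 regulators and effectors had a median of -0.02 (Sytl2 -0.18, Rab27a -0.32, Sytl4 -0.33). For the 23 measured of 26 vesicle membrane and transmitter transporter genes the median was 0.00 (Slc17a9, a nucleotide transporter, 0.30; Slc18a2, a monoamine transporter, -0.22; Slc17a7, a glutamate transporter, 0.15). The 28 measured of 30 endocytosis and recycling genes had a median of 0.02 (Aak1 -0.24, Sh3gl3 -0.23, Amph 0.16).

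The 12 measured of 13 dense-core vesicle genes had a median of -0.02, with 1 at an unadjusted p under 0.05 in each direction (2 of 12, against 2.56% of all genes). Pam, the enzyme that amidates neuropeptides, had intensities of 1056, 979 and 726 in Meis1cko DRGs and 1956, 1509 and 1414 in control DRGs. All Meis1cko values were below all control values, as for 3.82% of all genes, with a log2 fold change of -0.82 (SE 0.19, unadjusted p = 0.00326, adjusted p = 1, limma), and the adjusted p with the replicates paired was 0.0817. Scg5, a chaperone of the convertase Pcsk2, had 4549.6, 1484 and 3946 in Meis1cko DRGs and 1461, 1413 and 1723 in control DRGs. Meis1cko replicate 2 lay within the control range, and the log2 fold change was 0.97 (SE 0.40, unadjusted p = 0.0426, adjusted p = 1, limma). Ptprn2, a dense-core vesicle membrane protein, was at -0.14.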

How the data were processed

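Total RNA of DRGs from 3 Meis1cko and 3 control mice was measured on 1 array per mouse. The deposited intensity values were normalized by the authors and are linear, from images read with GeneChip Command Console and analysed in GeneSpring. The normalization method is not given in the sources used here, and the labels name Trizol where the methods name an RNeasy kit. The number of arrays limits the precision, since p-values measure the spread between 3 mice per genotype.

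Intensities were taken to log2 with values under 1 set to 1, and the tests did not use 64 control probe sets. Of the 45037 probe sets, the platform annotation pairs 34945 with 1 gene symbol, 932 with several and 9160 with none. All 60 genes were matched in RefSeq (GRCm38.p6). Genotypes were compared in limma 3.58.1 (R 4.3.3; lmFit, then eBayes) over all probe sets, without a replicate block, with Benjamini-Hochberg adjustment and 0.05 as the threshold. The fit was tested on simulated data with independent arrays and the same spread for every probe set. That simulation lacks the shared deviations of arrays with the same number and does not test the fit under them.

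The genes, lists and tests were chosen with earlier results of these data known. Values of every array are given for the gene of highest mean in each family, for genes at an unadjusted p under 0.05 or without overlap, and for a core of fusion genes (Syt1, Snap25, Stx1a, Vamp1, Vamp2, Cplx1, Cplx2, Syn1, Sv2a and Rab3a). Of each list of related genes, up to 3 with the smallest p are named. Vamp3, Vamp5, Vamp8, Syt7, Stx19, further probe sets and the promoter windows were chosen after their values were seen.

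Arrays of the same replicate number deviated from their group means together, and the numbers were taken as pairing. The r was 0.424 for replicate 1, 0.535 for replicate 2 and 0.766 for replicate 3. Crossing replicates 1 and 2 gave 0.337 (Meis1cko 1 with control 2) and 0.319 (Meis1cko 2 with control 1). Replicate 3 of either genotype against replicates 1 and 2 of the other gave -0.600 to -0.517. The pairing thus mainly sets replicate 3 apart, and the match of replicates 1 and 2 is less clear. What the numbers stand for is not given in the sources used here. Alternatives were eBayes with a trend, the methods' t-test, quantile normalization, arrays centred on their median or on their 75th percentile, an offset of 16, a filter at the median, the replicate block, each array left out in turn, both replicate 3 arrays left out, and the mean of all probe sets of a gene.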

Additional observations from a re-analysis of the deposited data

How the results depend on the processing

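No gene of the 60 passed the adjusted threshold in any of the 16 alternatives, and with the replicate block the count was 0 and the median log2 fold change -0.05. The median stayed between -0.06 and -0.01. The count past the methods' thresholds was 0, or 0 to 1 with an array left out, the 1 being Vamp3 without control replicate 3 (log2 fold change -0.63, unadjusted p = 0.0212, adjusted p = 1, limma). The methods' t-test gave 1 gene an unadjusted p under 0.05 (Vamp4, 0.0251), and 0 after Benjamini-Hochberg. The filter at the median left 54 genes.

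Of 18 named genes, 6 kept their sign in every alternative (Cplx2, Rab3a, Sv2b, Syn1, Syn2 and Vamp3). Their sizes still moved with each array left out in turn, over -0.471 to -0.0447 (Cplx2), -0.630 to -0.264 (Vamp3), -0.267 to -0.0158 (Syn1), -0.233 to -0.0496 (Syn2), -0.0820 to -0.0128 (Rab3a) and -0.0819 to -0.0297 (Sv2b). The sign turned for several genes near 0. Quantile normalization gave 0.0288 for Stxbp5 and 0.00918 for Syt11. Median centring gave 0.00622 and 0.00654 for Stxbp5 and Syt11. Centring on the 75th percentile gave 0.0170 for Stxbp5, 0.0173 for Syt11 and 0.00120 for Cplx1. Without both replicate 3 arrays Stxbp5 was at 0.125, Syt11 at 0.000381 and Vamp1 at -0.00576. The mean of all probe sets gave -0.0483 for Syt1, 0.00951 for Cplx1, -0.105 for Vamp2, 0.0607 for Vamp4 and 0.0311 for Vamp5. With each array left out in turn, values ran from -0.0782 to 0.0487 (Cplx1), -0.0411 to 0.126 (Snap25), -0.169 to 0.0829 (Stx12), -0.394 to 0.0106 (Stx1a), -0.134 to 0.129 (Stxbp5), -0.278 to 0.101 (Sv2a), -0.0573 to 0.0423 (Syt11), -0.255 to 0.284 (Vamp1) and -0.0361 to 0.126 (Vamp2). None of these genes was called in any setting, and the cause of the turns was not tested.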
